A study of Homo sapiens with 12 samples.

Results

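T3 was compared with its vehicle in cells labelled SW1736 that stably carried the pCDH vector for thyroid hormone receptor beta (TRB). The comparison was chosen by sample titles and took 6 of the series' 12 RNA sequencing libraries: 3 of TRB cells with 10 nM triiodothyronine (T3) for 24 h and 3 of TRB cells with the sodium hydroxide vehicle for 24 h. All cells had first been kept for 24 h in phenol-red-free medium with charcoal-stripped serum, which removes hormone. The other 6 libraries, of SW1736 cells with the empty pCDH vector (EV) under the same 2 treatments, entered the fit and served for the test of whether a response differed between vectors. SW1736 is an established human cell line derived from anaplastic thyroid carcinoma. The labels do not say whether the cells with a vector were a clone or a pool, nor whether replicates were separate cultures, so p-values measure only the spread between these libraries, which may be technical.

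Thyroid hormone receptor beta is a nuclear receptor that sits on DNA with a retinoid X receptor partner, both with and without hormone. Without T3 it is known to recruit corepressors, and binding of T3 exchanges these for coactivators at many target genes, while other genes are known to fall with hormone. KLF9, HR and the calcium pump gene ATP2A2 are textbook targets, and T3 is known for its effects on lipid, sugar and heat metabolism.

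Counts within genes ran from 7083744 to 13086717 in the 6 TRB libraries, and 17833 to 22881 genes had at least 1 count. T3 replicate 2 was at the low end of both. Across genes, its difference from the other T3 libraries followed GC content (Spearman -0.885), and alignments that were not unique made up 19.0% of everything counted, against 43.7% to 66.9% in the other 5 libraries. The biological coefficient of variation of the T3 group was 0.629 with this library and 0.0576 without it, against 0.0826 in the vehicle group. Counts over gene lists and the values of many genes are therefore given from the fit of all 12 libraries and from a fit of the 11 others, called 12 and 11 libraries below. Other values are from 12 libraries. Every gene named below that passed with 12 libraries also passed with 11, in the same direction. Expression is in CPM, the counts scaled to a common library size. Changes are log2 fold changes of T3 against vehicle from edgeR, positive where T3 was higher, and a gene passed where its Benjamini-Hochberg adjusted p over all tested genes was below 0.05.

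Defining genes of the thyroid follicular cell were close to absent. FOXE1 and TSHR, a transcription factor of the thyroid and the receptor for thyrotropin, had 0 counts in all 6 TRB libraries, and the iodide transporter SLC5A5 had at most 1. Thyroglobulin, TG, had at most 5 counts. PAX8, a transcription factor of thyroid and kidney, stood at 4.36 to 6.98 CPM with vehicle, and NKX2-1, another thyroid lineage gene, at 1.29 to 1.43 CPM. The mesenchymal gene VIM reached at most 1.51 CPM and CDH2 had no count, while the epithelial genes KRT8 (386 to 1553 CPM), EPCAM (370 to 1100 CPM) and CDH1 (135 to 242 CPM) were abundant. The vehicle libraries also held VIL1, a protein of brush border microvilli, at 184 to 185 CPM and LGALS4, a galectin of digestive epithelium, at 693 to 733 CPM, both picked after their values were seen. Low thyroid and mesenchymal genes beside abundant digestive-epithelium genes leave the identity of the cells in doubt. Identity was not tested, and the cells are called SW1736 below only as labelled. Markers of other cell types were near their floor of 3 counts: 12 of 15 leukocyte, 8 of 9 endothelial, 7 of 10 fibroblast or pericyte and 6 of 6 erythroid genes did not exceed it in any of the 6 libraries. Exceptions included the lysozyme gene LYZ, at 778 to 1589 CPM, and the pericyte marker CSPG4, at 96.8, 87.2 and 93.8 CPM with vehicle. In bulk libraries fewer cells of a type and less RNA per cell cannot be told apart, which holds for every result below.

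With 12 libraries 2128 of 14431 tested genes passed, 1233 higher and 895 lower with T3, which is 14.7% of all tested genes (8.54% higher, 6.2% lower). With 11 libraries 4938 of 14825 passed (2686 higher, 2252 lower), or 33.3% (18.1% higher, 15.2% lower), and 2124 genes passed in both in the same direction. The 3 fits that left out a vehicle library gave 1277, 1299 and 1256, and 1098 genes (691 higher, 407 lower) passed with 12 libraries and without each TRB library in turn. Large changes were more often rises: 398 genes rose and 185 fell by at least 2 on the log2 scale, and 185 rose and 51 fell by at least 3. Genes that passed higher made up 5.69% to 6.05% of the CPM in the vehicle libraries and 13.6%, 21.0% and 13.4% in T3 replicates 1 to 3. Genes that passed lower made up 8.17% to 8.51% with vehicle and 4.28%, 3.35% and 4.24% with T3. In 52 of the genes that rose, every vehicle library held at most 3 counts, and in 31 that fell this held for every T3 library. The correlation of the log2 change with gene GC content across genes was -0.522 (Spearman, 12480 genes) with 12 libraries and 0.00869 (12662 genes) with 11. All T3 libraries lay above all vehicle libraries for 17.3% of tested genes and below them for 23.5%, 40.8% in all.

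**Figure D1:**
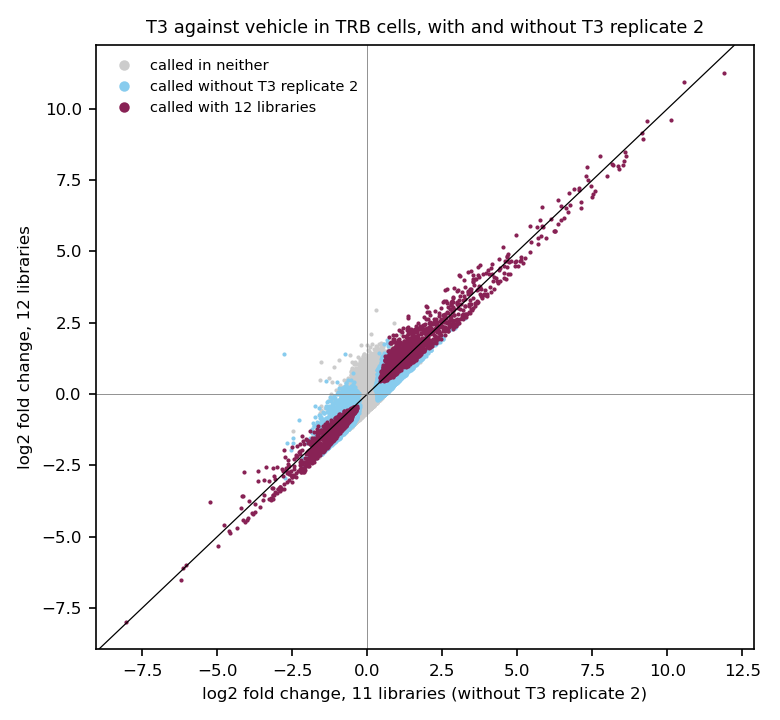
Each point is 1 gene tested in both fits, with its log2 fold change of T3 against vehicle in TRB cells from 11 libraries (x axis) and 12 libraries (y axis). Genes called with 12 libraries (dark) lie along the diagonal over the whole range, and the 4938 genes called with 11 libraries include many (light blue) between the dark groups.

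The receptor gene itself was examined first. THRB stood at 80.2, 79.8 and 80.4 CPM in vehicle replicates 1 to 3 and at 322, 190.3 and 297 CPM in T3 replicates 1 to 3. All T3 libraries lay above all vehicle libraries, and THRB rose by 1.75, SE 0.22, adjusted p 0.000434 with 12 libraries and by 1.997, adjusted p 2.1e-07 with 11. Reads from the vector and from the endogenous gene are counted together. THRA, the gene of receptor alpha, stood at 98.0, 103 and 101 CPM with vehicle and 64.0, 13.5 and 75.2 CPM with T3. Its T3 libraries lay below the vehicle libraries, with replicate 2 lowest, and it did not pass with 12 libraries (-0.98, SE 0.45, adjusted p 0.172) but passed with 11 (-0.49, adjusted p 0.013). It also passed lower with 12 libraries in limma-voom (adjusted p 0.000112) and with offsets for GC content, called GC offsets below (0.000386). RXRA, which encodes a partner of the receptor, did not pass in either (-0.74, SE 0.44, adjusted p 0.269 and -0.26, adjusted p 0.268). It passed lower with limma-voom (-0.36, adjusted p 0.00656), with GC offsets and without T3 replicate 2 (-0.39, 9.61e-05) and with the 5 TRB libraries other than it alone (-0.27, 0.00936). Among the receptors and coregulators, 4 of 19 tested genes passed with 12 libraries, 2 in each direction, beside 8.54% higher and 6.2% lower of all tested genes (1 in each without each vehicle library in turn). With 11 libraries 6 passed higher and 3 lower, beside 18.1% and 15.2% of all tested genes. TBL1X, a subunit of the NCoR/SMRT corepressor complex, fell from 112, 122 and 118 CPM to 28.1, 25.5 and 29.5 CPM (-2.08, SE 0.14, adjusted p 8.75e-06; -1.98, adjusted p 3.72e-08 with 11).

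KLF9, a zinc finger transcription factor, rose from 7.93, 10.9 and 9.32 CPM with vehicle to 104, 257 and 105 CPM with T3. The change was 4.05, SE 0.37, adjusted p 5.25e-05 with 12 libraries and 3.52, adjusted p 8.92e-09 with 11, and the libraries of the groups did not overlap. HR encodes a corepressor that is often used as a readout of T3. It stood at 31.2, 32.1 and 32.3 CPM with vehicle and 46.4, 3.42 and 52.7 CPM with T3, so replicates 1 and 3 were above all vehicle libraries and replicate 2 below all of them. Its change was 0.11, SE 0.64, adjusted p 0.92 with 12 libraries and 0.68, adjusted p 0.0104 with 11. HR also passed higher with 12 libraries in limma-voom (0.58, adjusted p 0.00102) and with GC offsets (0.63, 0.000781). ATP2A2, the sarco/endoplasmic reticulum calcium pump, rose from 479.6, 505 and 530.4 CPM to 1221, 1262 and 1215 CPM (1.29, SE 0.13, adjusted p 8.9e-05; 1.32, adjusted p 3.18e-07 with 11), one of the genes for which replicate 2 lay beside the other T3 libraries. HIF1A, the hypoxia-inducible factor subunit, rose from 104, 131 and 121 CPM to 398, 980.0 and 408 CPM (2.32, SE 0.34, adjusted p 0.000998; 1.81, adjusted p 2.25e-06 with 11). Of the 25 genes on the list of known T3 targets, 17 could be tested. With 12 libraries 7 passed higher (3 to 13 over the 12 fits that each left out 1 library, the lowest without vehicle replicate 3) and 1 lower, CPT1A, which encodes the carnitine palmitoyltransferase of fatty acid entry into mitochondria (131, 125 and 126 to 79.7, 47.3 and 72.8 CPM, -0.93, SE 0.19, adjusted p 0.00736). With 11 libraries 13 passed higher and 3 lower of 18. Shares over all tested genes were 8.54% higher and 6.2% lower with 12 libraries, and 18.1% and 15.2% with 11. The median change of the list was 0.96 with 12 and 1.06 with 11 libraries, beside 0.01 and -0.01 over all tested genes, and its tested genes had a median GC content of 56.8% against 48.4% over all. The call of CPT1A was lost with the 6 TRB libraries alone (adjusted p 0.145).

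RUNX2, a Runt-domain transcription factor best known from bone, stood at 9.96, 9.13 and 10.7 CPM with vehicle and 103, 143 and 96.2 CPM with T3. The rise of 3.52, SE 0.23, adjusted p 6.7e-06 (3.37, adjusted p 1.04e-08 with 11) had no overlap between the groups. Its family member RUNX1 fell from 20.9, 30.2 and 28.96 CPM to 8.41, 7.92 and 7.62 CPM (-1.74, SE 0.19, adjusted p 0.000147; -1.68, adjusted p 1.31e-05 with 11). The upstream sequence of RUNX2 is shown because it is a marker of the response and holds matches to a nuclear receptor half-site and to the core of its own family. This holds for the first start site only, as the window of the second held no match to either. The 250 bases before the first of 2 RefSeq start sites (GRCh38.p14, chr6:45328080-45328329, plus strand) are printed 5′ to 3′, with capitals for 1 half-site AGGTCA and for 2 matches to TGTGGT, the core bound by RUNX proteins, here read on the other strand.
RUNX2: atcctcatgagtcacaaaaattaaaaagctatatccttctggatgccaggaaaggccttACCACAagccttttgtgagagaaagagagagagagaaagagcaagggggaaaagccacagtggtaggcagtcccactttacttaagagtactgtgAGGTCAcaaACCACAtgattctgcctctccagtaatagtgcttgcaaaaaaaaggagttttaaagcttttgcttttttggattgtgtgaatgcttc

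CPM, the gene of the membrane enzyme carboxypeptidase M (not to be confused with the unit), had 1, 1 and 0 counts in the vehicle libraries and stood at 108, 222 and 104 CPM with T3. Against the floor of 3 counts per vehicle library it was at least 533-fold higher with 12 libraries and at least 390.4-fold without T3 replicate 2. IL32, a proinflammatory cytokine, was likewise at 0, 1 and 0 counts with vehicle and at 43.0, 9.35 and 50.8 CPM with T3, at least 127-fold and, without replicate 2, at least 173-fold higher. CEMIP, a hyaluronan-binding protein that promotes hyaluronan breakdown, moved the other way, from 379, 330.3 and 359.6 CPM to 14.2, 9.89 and 14.2 CPM (-4.79, SE 0.21, adjusted p 6.63e-07; -4.599, adjusted p 6.31e-10 with 11). The 250 bases upstream of the first of 3 CPM starts (GRCh38.p14, chr12:68933200-68933449, minus strand) hold 1 half-site, in capitals and read on the other strand, and are shown as the window of the gene with the largest rise. The windows of the other CPM starts and those of KLF9, IL32 and CEMIP held no match to the motifs searched.
CPM: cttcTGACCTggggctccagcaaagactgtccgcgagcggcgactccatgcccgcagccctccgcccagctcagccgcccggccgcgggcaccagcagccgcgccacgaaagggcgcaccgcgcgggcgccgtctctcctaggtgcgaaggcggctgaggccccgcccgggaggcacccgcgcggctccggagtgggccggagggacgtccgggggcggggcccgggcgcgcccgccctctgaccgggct

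**Figure D2:**
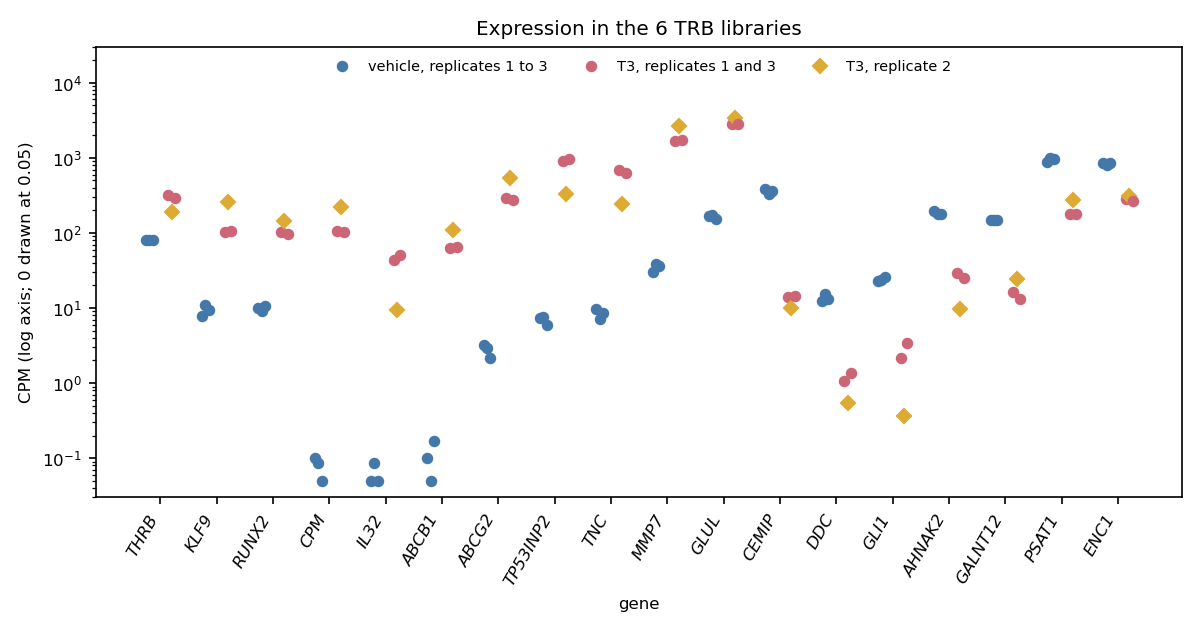
CPM on a log axis in the 3 vehicle libraries (blue), T3 replicates 1 and 3 (red) and T3 replicate 2 (yellow diamonds) for 18 genes; values of 0 are drawn at 0.05. In each gene shown the T3 libraries do not overlap the vehicle libraries, as for KLF9 with 7.93, 10.9 and 9.32 against 104, 257 and 105 CPM, and T3 replicate 2 lies apart from the other T3 libraries in several, as for IL32 and TNC. Lack of overlap was a condition for genes chosen as the largest changes, and 40.8% of all tested genes met it.

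Apart from CPM and IL32, the largest rises included drug efflux pumps, cell surface and matrix proteins and transcription factors. ABCB1, the multidrug efflux pump P-glycoprotein, had 1, 0 and 2 counts with vehicle and 63.9, 109 and 64.5 CPM with T3, at least 291-fold higher (at least 236-fold without replicate 2). ABCG2, the breast cancer resistance protein pump, rose from 3.25, 2.93 and 2.18 CPM to 292, 548 and 279 CPM (7.06, SE 0.34, adjusted p 9.51e-07; 6.73, adjusted p 3.04e-11 with 11). ABCC2, a pump for organic anions, rose from 1.22, 0.431 and 1.09 to 5.18, 5.40 and 3.87 CPM (2.39, SE 0.36, adjusted p 0.00135). Over the 16 ABC transporters tested, 6 passed higher and 2 lower with 12 libraries (5 to 8 and 1 to 3 over the fits without 1 library) and 8 and 3 with 11. Shares over all tested genes were 8.54% higher and 6.2% lower with 12 libraries, and 18.1% and 15.2% with 11. APOL1, an apolipoprotein, rose from 0, 0.258 and 0.336 CPM to 62.6, 49.6 and 62.1 CPM (8.04, SE 0.64, adjusted p 2.24e-05). TP53INP2, a regulator of autophagy, rose from 7.32, 7.67 and 5.88 to 904, 328 and 971 CPM (6.72, SE 0.42, adjusted p 5.07e-06). HEG1, a cell surface glycoprotein of the CCM pathway, rose from 3.66, 2.15 and 2.10 to 287, 234 and 256 CPM (6.62, SE 0.28, adjusted p 5.12e-07). C2orf54 rose from 1.22, 1.21 and 1.01 to 348, 72.5 and 395 CPM (7.88, SE 0.66, adjusted p 2.94e-05). The transcription factor genes MYT1 and TFAP2C rose by 6.37, SE 0.37, adjusted p 3.31e-06 and by 6.12, SE 0.28, adjusted p 6.77e-07. In MYT1 the vehicle libraries stood at 2.44, 2.50 and 2.18 CPM and the T3 libraries at 239.6, 120.0 and 233 CPM. In TFAP2C they stood at 1.42, 0.948 and 2.01 and 95.3, 109.9 and 103 CPM. GAS6-AS1, the antisense transcript of GAS6, had at most 3 counts per vehicle library and 47.4, 8.10 and 47.5 CPM with T3, but its reads cannot be told from those of GAS6 where the genes overlap, since strand use is not given in the sources used here.

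By amount of CPM, the largest rise among genes that met the naming conditions was that of GLUL, glutamine synthetase. The conditions were a call in each fit without 1 TRB library, no overlap of the groups, a minimum expression and, for this ranking, a minimum fold change. GLUL went from 167, 172 and 153 CPM to 2809.8, 3445 and 2859 CPM (4.21, SE 0.16, adjusted p 4.04e-07; 4.16, adjusted p 3.04e-11 with 11). The metalloproteinase MMP7, matrilysin, went from 30.4, 38.5 and 35.9 CPM to 1679, 2671 and 1727 CPM (5.86, SE 0.25, adjusted p 5.12e-07; 5.65, adjusted p 4.57e-11 with 11). GPRC5A, an orphan receptor of epithelia, rose from 368, 355 and 341 to 2102, 1026 and 2129 CPM (2.30, SE 0.25, adjusted p 0.000174). The long noncoding RNA NEAT1, a scaffold of paraspeckles, rose from 1127, 1142 and 1299 to 2859, 3839 and 2691 CPM (1.40, SE 0.18, adjusted p 0.000552). In each of these 4 genes all T3 libraries exceeded all vehicle libraries, which the rule for naming the largest rises required. Of all tested genes, 17.3% had every T3 library above every vehicle library.

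After CEMIP, the deepest falls among genes that met the naming conditions were those of DDC, PHGR1, SLC6A9, GLI1, SPDEF and CSPG4. DDC, the decarboxylase that makes dopamine and serotonin, went from 12.4, 15.3 and 13.3 CPM to 1.05, 0.540 and 1.37 CPM (-3.72, SE 0.27, adjusted p 1.3e-05; -3.47, adjusted p 1.12e-07 with 11). PHGR1 went from 33.8, 25.9 and 30.2 to 3.15, 0.360 and 2.998 CPM (-3.70, SE 0.56, adjusted p 0.0013; -3.22, adjusted p 2.19e-05 with 11). SLC6A9, a glycine transporter, went from 26.6, 28.4 and 24.8 to 3.15, 0 and 2.62 CPM (-3.67, SE 0.62, adjusted p 0.00274). SPDEF, an ETS factor of secretory epithelium, went from 62.1, 65.9 and 58.0 to 7.28, 0.720 and 8.99 CPM (-3.41, SE 0.60, adjusted p 0.00339). CSPG4, a proteoglycan of the cell surface, went from 96.8, 87.2 and 93.8 to 12.2, 1.08 and 13.9 CPM (-3.33, SE 0.63, adjusted p 0.00521; -2.79, adjusted p 2.65e-06 with 11). The calls of SLC6A9, SPDEF and CSPG4 were lost with the 6 TRB libraries alone (adjusted p 0.0979, 0.0789 and 0.0953). FLVCR2, a membrane transporter, AHNAK2, a large scaffold protein, GALNT12, which starts mucin-type glycosylation, and KIF21B, a kinesin, fell by 3.26, 3.07, 3.06 and 2.91 on the log2 scale. GALNT12 was the gene among these in which replicate 2 did not lie below the other T3 libraries (147, 149 and 149.7 to 16.4, 24.1 and 13.1 CPM). Among abundant genes, ENC1, an actin-binding protein, fell from 845, 815 and 862 to 281, 306 and 266 CPM (-1.56, SE 0.13, adjusted p 2.72e-05). The lipase ABHD2 fell from 716, 704 and 716 to 319, 263 and 304 CPM (-1.27, SE 0.14, adjusted p 0.000147). Of the genes examined for cell identity, HNF4A, a nuclear receptor of liver and gut, fell from 126, 120.5 and 125 to 40.8, 23.2 and 41.7 CPM (-1.81, SE 0.22, adjusted p 0.000354; -1.53, adjusted p 8.26e-07 with 11). LGALS4 fell from 733, 710.0 and 693 to 264, 56.1 and 273 CPM (-1.85, SE 0.46, adjusted p 0.0206; -1.36, adjusted p 2.26e-05 with 11). The LGALS4 call was lost without vehicle replicate 1, 2 or 3 (adjusted p 0.0728, 0.0656 and 0.0639) and with the 6 TRB libraries alone (0.179). The thyroid lineage list had 6 tested genes of 16, and both that passed with 12 libraries were lower. With 11 libraries 1 of 7 passed higher and 3 lower. Shares over all tested genes were 8.54% higher and 6.2% lower with 12 libraries, and 18.1% and 15.2% with 11. TFF3, a secreted trefoil peptide, was at 3.25, 3.02 and 3.02 CPM with vehicle and at most 3 counts in every T3 library, at least 8.15-fold lower.

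Most tested interferon-stimulated genes rose. These are the antiviral and signalling genes that interferons switch on. Of 44 listed genes 30 could be tested, and 18 passed higher and 1 lower with 12 libraries (15 to 26 higher over the fits without 1 library), against 8.54% and 6.2% of all tested genes. With 11 libraries 26 passed higher and 1 lower, against 18.1% and 15.2% of all tested genes. The median change was 1.60 with 12 and 1.33 with 11 libraries, and 10 of the 44 genes had at most 3 counts in all 6 libraries. MX2, a GTPase that blocks viruses, had 0 counts in the 3 vehicle libraries and 3.60, 3.78 and 3.87 CPM with T3, at least 13.8-fold higher. IFIT2, an RNA-binding antiviral protein, had at most 1 count with vehicle and 5.70, 13.1 and 5.996 CPM with T3, at least 30.5-fold higher. IFITM3, a membrane protein that blocks virus entry, was at 5.48 and 6.12 CPM in T3 replicates 1 and 3, at 0 in T3 replicate 2 and at most 1 count with vehicle (at least 14.2-fold higher, at least 21.3-fold without replicate 2). IRF1, a transcription factor of the pathway picked after its values were seen, rose from 11.5, 10.3 and 11.2 to 153, 57.6 and 157 CPM (3.47, SE 0.35, adjusted p 0.000104; 3.86, adjusted p 1.03e-09 with 11). OASL, an RNA sensor regulator, passed lower (5.18, 3.96 and 5.12 to 2.18, 1.26 and 2.25 CPM, -1.28, SE 0.28, adjusted p 0.0105) but not without vehicle replicate 1 or 3 (adjusted p 0.0533 and 0.0558) or with the 6 TRB libraries alone (0.0953). Leukocyte marker genes PTPRC and CD3D stayed at or under 2 counts in every TRB library. The monocyte gene CD14 was at 0.407, 0.345 and 0.4197 CPM with vehicle and 9.23, 0.180 and 9.74 CPM in T3 replicates 1 to 3 (4.04, SE 0.91, adjusted p 0.013; 4.603, adjusted p 4.52e-07 with 11). The CD14 call was lost without vehicle replicate 1, 2 or 3 (adjusted p 0.0594, 0.0655 and 0.0621), and its part in the result was not tested.

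RefSeq promoter windows (GRCh38.p14, from 250 bases before to 50 after a start) were searched on both strands for the core of the interferon-stimulated response element, GAAANNGAAA. The table held windows for 14 of the 18 interferon-stimulated genes that passed higher, and 11 of the 14 (78.6%) had a match in at least 1 window. The share was 68.2% of the 22 tested genes of the list with a window, 8.04% of all genes that passed higher (895 with a window), 3.75% of those that passed lower (587) and 3.86% of all tested genes (9939). Without T3 replicate 2 it was 5.56% of genes that passed higher (1888 with a window) and 3.40% of those that passed lower (1586). These are genes tested in both fits. The upstream 250 bases are printed for IFITM3 and IFIT3, the 2 with the largest rise that have a window (IFIT3, an antiviral protein, rose from 0.102, 0.258 and 0.336 to 6.75, 10.6 and 5.75 CPM, 4.92, SE 0.44, adjusted p 4.86e-05). Capitals mark the matches, on the printed strand in IFITM3 and on the other strand in IFIT3, which are letters in a window and not shown to be bound. The IFITM3 window is at chr11:320861-321110 (minus strand) and that of the second IFIT3 start at chr10:89332279-89332528 (plus strand), whose capitals also include 1 match to TGTGGT read on the other strand.
IFITM3: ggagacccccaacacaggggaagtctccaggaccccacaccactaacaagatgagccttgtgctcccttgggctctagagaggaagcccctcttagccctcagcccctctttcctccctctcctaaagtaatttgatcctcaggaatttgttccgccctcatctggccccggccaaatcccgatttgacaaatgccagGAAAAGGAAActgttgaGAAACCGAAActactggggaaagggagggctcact
IFIT3: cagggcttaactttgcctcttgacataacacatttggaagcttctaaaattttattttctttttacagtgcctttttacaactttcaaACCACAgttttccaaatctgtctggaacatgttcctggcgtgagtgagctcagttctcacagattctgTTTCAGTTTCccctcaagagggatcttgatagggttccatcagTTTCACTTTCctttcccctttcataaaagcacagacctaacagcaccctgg

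The half-site AGGTCA was in the windows of 16.0% of genes that passed higher, 14.7% of those that passed lower and 13.7% of all tested genes, and TGTGGT in those of 16.9%, 16.4% and 12.9%. Without T3 replicate 2 the half-site was in 16.1% of genes that passed higher and 13.0% of those that passed lower. TGTGGT was then in 14.2% and 14.3%. A direct repeat of AGGTCA spaced by 4 bases (DR4), the classical binding element of the receptor, was found in the windows of 1 tested gene and of no gene that passed. That is 1 of 9939 tested genes with a window (0.0101%). With an exact match this rare, its absence from genes that passed says nothing about them.

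Genes of antigen presentation by MHC class I were also mostly higher. Of 15 tested genes 10 passed with 12 libraries, all higher (9 to 15 without 1 library), and 15 of 17 passed with 11, all higher. The medians were 1.53 and 1.81. Counts in this paragraph stand beside 8.54% higher and 6.2% lower of all tested genes with 12 libraries, and 18.1% and 15.2% with 11. ERAP2 and ERAP1 are the aminopeptidases that trim peptides in the endoplasmic reticulum. ERAP2 rose from 17.3, 16.6 and 16.8 to 198, 422 and 178 CPM (3.97, SE 0.34, adjusted p 3.53e-05). ERAP1 rose from 10.3, 11.3 and 8.81 to 47.0, 92.5 and 48.8 CPM (2.63, SE 0.28, adjusted p 0.000142). Named after their values were seen, TAP2, a subunit of the peptide transporter, rose from 7.42, 7.67 and 7.05 to 40.2, 51.4 and 40.2 CPM (2.57, SE 0.20, adjusted p 1.81e-05). B2M, the light chain, rose from 127, 142 and 136 to 374, 709.7 and 412 CPM (1.89, SE 0.24, adjusted p 0.000438). Of 17 kinases, STATs and regulators of JAK-STAT signalling 1 passed higher with 12 libraries (0 without each vehicle library in turn) and 3 with 11, all higher. Limma-voom called 8 higher and 3 lower, beside 3505 higher and 4292 lower of all 14431 tested genes. In edgeR 6 higher and 1 lower had an unadjusted p below 0.05, for which the share of all tested genes is not given here. Of the inflammatory genes, 3 of 16 passed higher and 4 lower (2 lower without each vehicle library or T3 replicate 3, and 5 of 17 in each direction with 11). PTGS2, the inducible cyclooxygenase, rose from 39.5, 43.9 and 46.1 to 115, 259 and 116 CPM (1.92, SE 0.34, adjusted p 0.00328). The chemokine CXCL1 fell from 4.68, 3.62 and 4.87 to 1.501, 1.08 and 0.874 CPM (-1.87, SE 0.26, adjusted p 0.000704) and the cytokine IL1A was at least 4.42-fold lower.

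**Figure D3:**
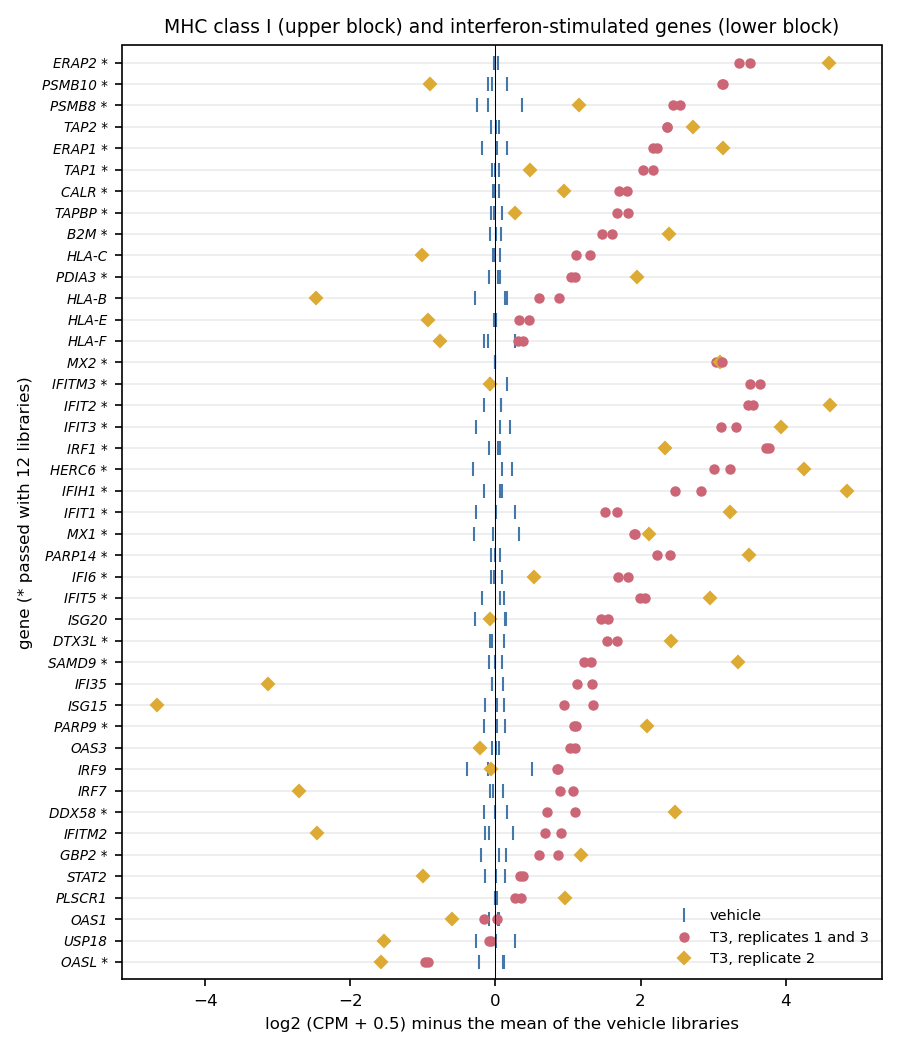
Each row is a tested gene of these lists that is reported here, with log2 (CPM + 0.5) in each library minus the mean of the 3 vehicle libraries on the x axis: vehicle libraries as blue bars, T3 replicates 1 and 3 as red circles and T3 replicate 2 as yellow diamonds. The red circles lie to the right of the vehicle bars in most rows, as for IRF1 with 11.5, 10.3 and 11.2 against 153, 57.6 and 157 CPM, while replicate 2 lies to the left in several.

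The integrated stress and unfolded protein response genes changed in both directions. The first branch of these responses is driven by the transcription factor ATF4 and supplies amino acids; the other raises chaperones of the endoplasmic reticulum. With 12 libraries 9 of 24 genes passed lower and 5 higher (8 to 13 and 2 to 6 over the fits without 1 library, the fewest higher without vehicle replicate 2 or 3), and with 11 libraries 13 and 6. Shares over all tested genes were 6.2% lower and 8.54% higher with 12 libraries, and 15.2% and 18.1% with 11. PSAT1, an enzyme of serine synthesis, fell from 869.5, 985 and 981 CPM to 181, 275 and 177 CPM (-2.16, SE 0.19, adjusted p 5.04e-05; -2.35, adjusted p 2.38e-08 with 11). ASNS, asparagine synthetase, fell from 17.5, 19.5 and 21.4 to 2.93, 3.78 and 2.25 CPM (-2.71, SE 0.22, adjusted p 2.87e-05; -2.83, adjusted p 3.03e-07 with 11). SLC7A11, the cystine transporter, fell from 215, 312 and 302 to 33.1, 77.5 and 27.2 CPM (-2.59, SE 0.42, adjusted p 0.00204; -3.14, adjusted p 6.85e-06 with 11). TRIB3, a pseudokinase induced by ATF4, went from 199, 193 and 188 to 31.6, 5.94 and 40.0 CPM (-2.89, SE 0.52, adjusted p 0.00372). ATF4 itself, named after its values were seen, went from 309, 288 and 278 to 168, 108 and 175 CPM (-0.96, SE 0.18, adjusted p 0.00528; -0.72, adjusted p 7.92e-05 with 11). The chaperone HSPA5 went from 486, 441 and 430.4 to 980.4, 1972 and 1014 CPM (1.55, SE 0.25, adjusted p 0.00199; 1.19, adjusted p 8.59e-07 with 11). The chaperone HSP90B1 went from 700.0, 693 and 653 to 1139, 4739 and 1118 CPM (1.77, SE 0.48, adjusted p 0.0318; 0.78, adjusted p 0.0011 with 11). The disulfide isomerase PDIA4 went from 351, 354 and 348 to 623, 481 and 615 CPM (0.71, SE 0.14, adjusted p 0.00718). The calls of TRIB3, ATF4, HSPA5, HSP90B1 and PDIA4 were lost with the 6 TRB libraries alone (adjusted p 0.0812, 0.125, 0.0538, 0.2 and 0.144), that of HSP90B1 also without vehicle replicate 1, 2 or 3 (0.0924, 0.0918 and 0.0997), that of PDIA4 with no count filter (0.0789) and that of ATF4 with GC offsets (0.238).

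**Figure D4:**
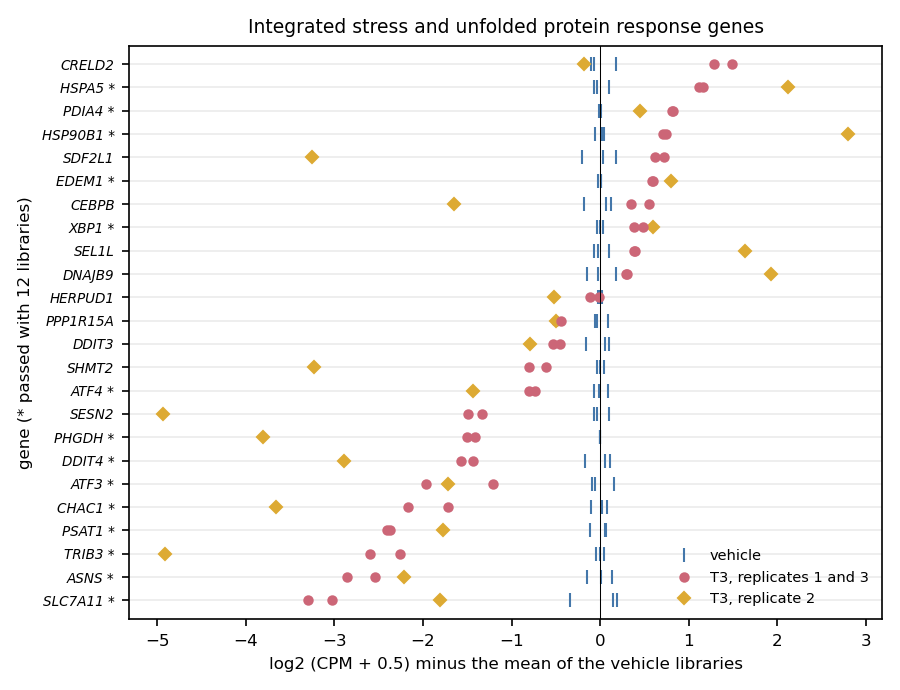
The same display for the 24 stress response genes, sorted by the change with 11 libraries. Amino acid and ATF4 branch genes such as ASNS (17.5, 19.5 and 21.4 against 2.93, 3.78 and 2.25 CPM) lie left of the vehicle bars in all T3 libraries, and HSPA5 (486, 441 and 430.4 against 980.4, 1972 and 1014 CPM) lies right of them.

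Amino acid transporters that also carry thyroid hormone went in both directions. SLC7A8, the LAT2 light chain, rose from 1.22, 1.03 and 1.43 to 8.33, 6.12 and 11.4 CPM (2.80, SE 0.43, adjusted p 0.00146). SLC7A5, the LAT1 light chain, went from 695, 724 and 691 to 173, 18.3 and 206 CPM (-2.41, SE 0.63, adjusted p 0.0262; -1.85, adjusted p 4.73e-06 with 11). SLC3A2, the heavy chain shared by both, went from 347, 316 and 352 to 114, 26.3 and 119 CPM (-1.97, SE 0.44, adjusted p 0.0123; -1.49, adjusted p 8.87e-06 with 11). Both calls were lost with the 6 TRB libraries alone (adjusted p 0.2 and 0.144), and that of SLC7A5 also without T3 replicate 1 (0.0502) and without vehicle replicate 1, 2 or 3 (0.0765, 0.0739 and 0.0719). Of 7 tested genes of hormone transport and deiodination, 2 passed higher and 3 lower with 12 libraries (1 to 3 each without 1 library), and 3 and 3 of 8 with 11. Shares over all tested genes were 8.54% higher and 6.2% lower with 12 libraries, and 18.1% and 15.2% with 11.

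In lipid and sugar metabolism, genes of fatty acid synthesis, cholesterol and glycolysis that passed with 12 libraries were all higher. Counts in this paragraph stand beside 8.54% higher and 6.2% lower of all tested genes with 12 libraries, and 18.1% and 15.2% with 11. With 12 libraries 7 of 17 fatty acid synthesis genes passed, all higher (5 to 10 without 1 library), and 10 of 18 with 11, all higher. SCD, the desaturase that makes monounsaturated fatty acids, rose from 173, 186 and 181 CPM to 1046, 1062 and 992 CPM (2.52, SE 0.13, adjusted p 1.38e-06; 2.55, adjusted p 1.06e-09 with 11). Of 24 cholesterol genes 4 passed, all higher (1 to 10, the fewest without vehicle replicate 1), and 10 higher and 2 lower with 11. INSIG1, the sterol-regulated anchor of SREBP, rose from 18.8, 23.5 and 22.7 to 65.1, 114 and 68.0 CPM (1.92, SE 0.23, adjusted p 0.000306). In glycolysis 8 of 27 passed, all higher (4 without each vehicle library in turn), and 15 higher and 5 lower with 11. PFKFB3, which makes the activator of phosphofructokinase, rose from 41.6, 44.2 and 40.7 to 310.4, 107 and 330.3 CPM (2.56, SE 0.35, adjusted p 0.000717; 2.97, adjusted p 2.68e-09 with 11). PGK1, phosphoglycerate kinase, named after its values were seen, went from 424, 452 and 454 to 735, 618 and 752 CPM (0.66, SE 0.14, adjusted p 0.00929). The PGK1 call was lost with no count filter, with GC offsets and with the 6 TRB libraries alone (adjusted p 0.106, 0.113 and 0.148). Of 21 fatty acid oxidation genes 2 passed, both lower (1 without vehicle replicate 1 or 3), and 3 higher and 7 lower with 11. No respiratory chain gene passed in edgeR with 12 libraries: of 32 nuclear ones 1 had an unadjusted p below 0.05 higher and 4 lower, DESeq2 called 0, limma-voom 1 higher and 15 lower, and 1 higher and 4 lower passed with 11 libraries. Of the 13 mitochondrially encoded ones 2 had an unadjusted p below 0.05, both higher, DESeq2 called 1, limma-voom 11, all higher, and none passed with 11 libraries in edgeR. Over all 14431 tested genes DESeq2 called 1863 higher and 1238 lower, and limma-voom 3505 higher and 4292 lower. The share of all tested genes with an unadjusted p below 0.05 is not given here.

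Genes of the cell cycle were counted by phase. In edgeR 8.54% of all tested genes passed higher and 6.2% lower with 12 libraries, and 18.1% and 15.2% with 11. Over all 14431 tested genes DESeq2 called 1863 higher and 1238 lower, and limma-voom 3505 higher and 4292 lower. The share of all tested genes with an unadjusted p below 0.05 is not given here. No G1/S gene of 28 passed in edgeR with 12 libraries, where 4 had an unadjusted p below 0.05 higher and 1 lower. DESeq2 called 1 in each direction, limma-voom 4 higher and 7 lower, and edgeR with 11 libraries 2 higher and 3 lower. MCM4, a subunit of the replicative helicase, stood at 269, 276 and 269 CPM with vehicle and 260.5, 240.0 and 255 CPM with T3. For G2/M 3 of 27 passed, all lower (0 without vehicle replicate 1, 1 without replicate 2 or 3 of it, against 6.2% lower of all tested genes). With 11 libraries 12 passed lower, against 15.2% of all tested genes, and 1 higher. DESeq2 called 6 lower, and limma-voom 21 lower and 1 higher. CDCA8, a subunit of the chromosomal passenger complex, went from 74.4, 64.5 and 61.9 to 38.7, 41.9 and 37.6 CPM (-0.76, SE 0.16, adjusted p 0.0099; -0.76, adjusted p 0.000656 with 11). The CDCA8 call was lost without vehicle replicate 1 (adjusted p 0.0547), with no count filter (0.0707) and with the 6 TRB libraries alone (0.118). MYC, the proliferation-linked transcription factor, fell from 379, 423 and 382 CPM to 139, 91.4 and 149.8 CPM (-1.64, SE 0.21, adjusted p 0.000422; -1.40, adjusted p 8.47e-06 with 11). The cyclin gene CCND1 went from 322, 369 and 349.7 to 519.6, 699 and 555 CPM (0.77, SE 0.15, adjusted p 0.00604; 0.68, adjusted p 0.000235 with 11). The CCND1 call was lost with no count filter (0.0545) and with the 6 TRB libraries alone (0.103). Among 23 apoptosis regulators 2 passed higher and 1 lower, near the 8.54% and 6.2% of all tested genes (4 higher without T3 replicate 1 or 3, 0 lower without each vehicle library). With 11 libraries 5 of 24 passed higher and 4 lower, near the 18.1% and 15.2% of all tested genes. TNFSF10, the death ligand TRAIL, rose from 6.81, 4.997 and 5.88 CPM to 179, 487 and 174 CPM (5.57, SE 0.47, adjusted p 2.98e-05; 4.96, adjusted p 3.78e-09 with 11).

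**Figure D5:**
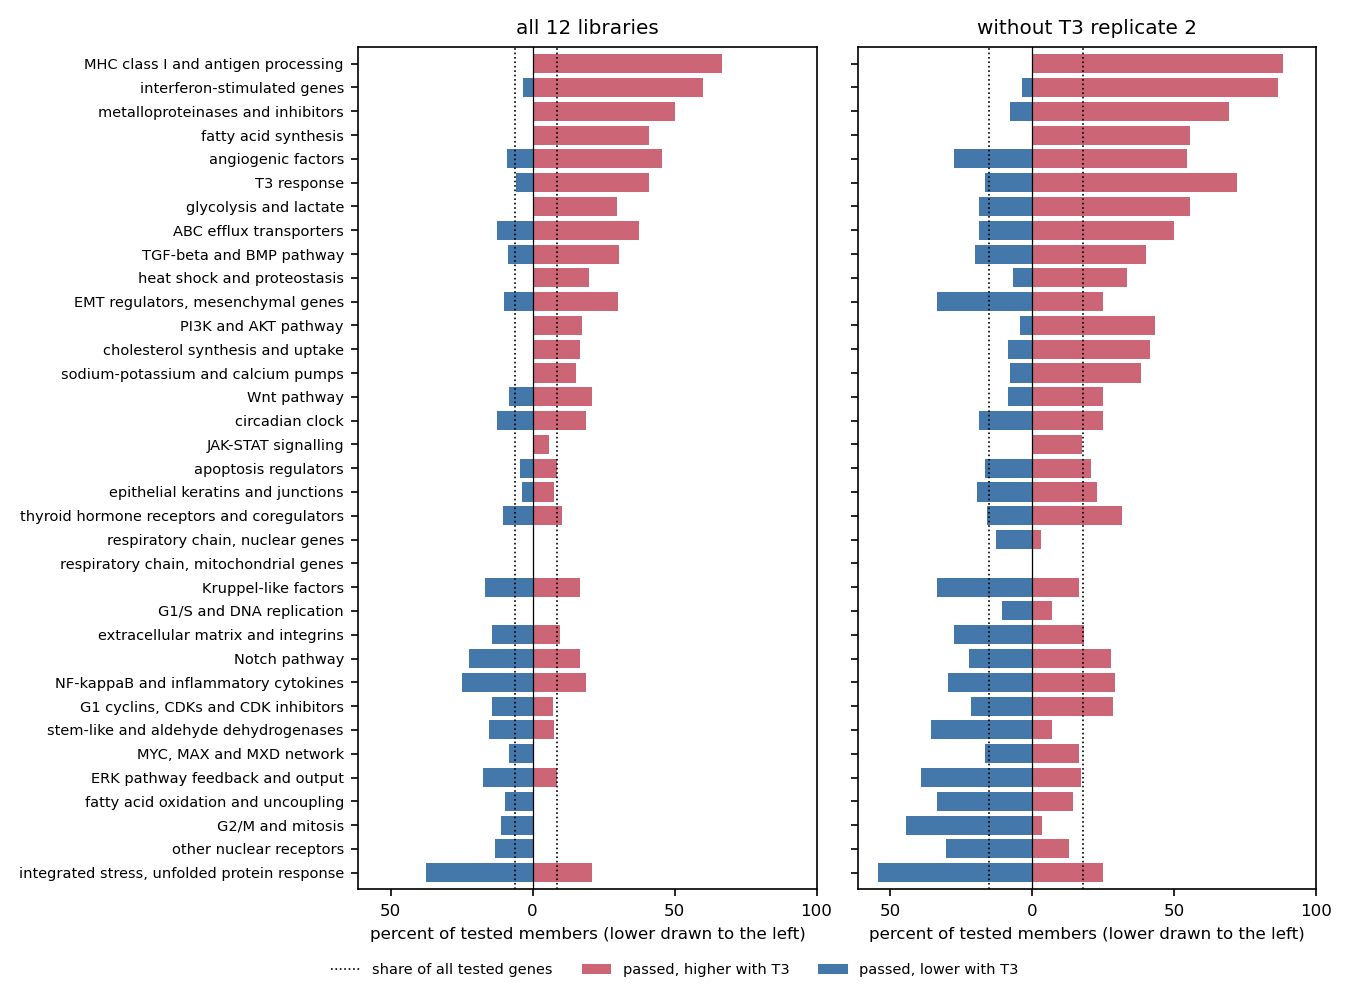
Bars give the percent of tested members of each list with at least 10 tested genes that passed higher (red, right) or lower (blue, left) with T3, with 12 libraries (left panel) and 11 libraries (right panel). Dotted lines mark the shares over all tested genes, 8.54% and 6.2% with 12 libraries and 18.1% and 15.2% with 11; MHC class I (10 of 15) and interferon-stimulated genes (18 of 30) have the longest bars on the right.

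With 12 libraries 6 of 12 metalloproteinase and inhibitor genes passed, all higher (4 to 9 without 1 library), and 9 higher and 1 lower of 13 with 11. All counts in this paragraph stand beside 8.54% higher and 6.2% lower of all tested genes with 12 libraries, and 18.1% and 15.2% with 11. MMP13, collagenase 3, had at most 2 counts per vehicle library and was at 3.75, 10.6 and 4.87 CPM with T3, at least 23.6-fold higher. TIMP2, a metalloproteinase inhibitor, rose from 105, 109 and 111 CPM to 1049, 557 and 1143 CPM (3.08, SE 0.25, adjusted p 2.68e-05; 3.39, adjusted p 4.32e-10 with 11). TNC, the matrix protein tenascin C, rose from 9.66, 7.07 and 8.64 to 696, 245 and 626 CPM (5.95, SE 0.41, adjusted p 8.97e-06; 6.34, adjusted p 8.71e-11 with 11). FN1, fibronectin, rose from 10.2, 9.39 and 9.15 to 303, 147 and 275 CPM (4.66, SE 0.28, adjusted p 4.01e-06; 4.97, adjusted p 4.57e-11 with 11). CTGF, a matricellular growth factor, rose from 11.2, 13.0 and 10.99 to 83.5, 130.4 and 103 CPM (3.17, SE 0.21, adjusted p 7.91e-06). ZEB1, a repressor of epithelial genes, rose from 0.407, 0.258 and 0.336 CPM to 2.85, 4.86 and 2.62 CPM (3.29, SE 0.38, adjusted p 0.00023). TGFBI, a matrix protein induced by TGF-beta, fell from 23.99, 22.3 and 23.4 to 6.604, 3.96 and 7.74 CPM (-1.91, SE 0.25, adjusted p 0.000594). The epithelial cadherin CDH1 was not lower: it went from 139, 149 and 135 to 236, 189.8 and 242 CPM (0.66, SE 0.14, adjusted p 0.0101; 0.81, adjusted p 2.95e-05 with 11). The CDH1 call was lost without vehicle replicate 3 (adjusted p 0.0608), with no count filter (0.13) and with the 6 TRB libraries alone (0.168). The laminin chains LAMC1 and LAMA3 rose by 1.42, SE 0.14, adjusted p 7.42e-05 and 1.40, SE 0.14, adjusted p 0.000118, and the hemidesmosome collagen COL17A1 fell from 119, 115 and 108 to 45.3, 29.1 and 47.7 CPM (-1.48, SE 0.19, adjusted p 0.000533). Of 21 matrix and integrin genes 2 passed higher and 3 lower, beside 8.54% and 6.2% of all tested genes (1 lower without vehicle replicate 2). With 11 libraries 4 of 22 passed higher and 6 lower, beside 18.1% and 15.2%. Among angiogenic factors 5 of 11 passed higher and 1 lower (6 and 3 with 11). NRP1, a coreceptor for VEGF, rose from 46.0, 47.9 and 45.2 to 373, 481 and 348 CPM (3.11, SE 0.18, adjusted p 3.25e-06; 3.01, adjusted p 2.68e-09 with 11). The secreted factor ANGPTL2 rose from 3.25, 2.67 and 2.10 to 96.4, 23.2 and 101 CPM (4.78, SE 0.53, adjusted p 0.000197). VEGFA fell from 329.6, 335 and 318 to 149.7, 105 and 155 CPM (-1.26, SE 0.16, adjusted p 0.000505; -1.05, adjusted p 2.51e-06 with 11).

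Developmental pathways had members in both directions. Their counts stand beside 8.54% higher and 6.2% lower of all tested genes with 12 libraries, and 18.1% and 15.2% with 11. In Hedgehog signalling 4 of 8 tested genes passed lower and 1 higher with 12 and with 11 libraries. GLI1, a transcription factor and target of the pathway, fell from 22.7, 23.8 and 26.0 CPM to 2.18, 0.360 and 3.37 CPM (-3.55, SE 0.45, adjusted p 0.000428; -3.12, adjusted p 8.08e-08 with 11). GLI2 went from 47.4, 55.8 and 47.7 to 25.4, 8.63 and 21.9 CPM (-1.42, SE 0.33, adjusted p 0.0147). The GLI2 call was lost without vehicle replicate 1, 2 or 3 (adjusted p 0.0542, 0.0682 and 0.0523) and with the 6 TRB libraries alone (0.162). CDON, a coreceptor, rose from 7.72, 10.7 and 11.3 to 46.1, 36.7 and 43.1 CPM (2.08, SE 0.22, adjusted p 0.000131). In Wnt signalling 5 of 24 passed higher and 2 lower (1 and 0 lower without vehicle replicates 1 and 3, 6 higher and 2 lower with 11). LGR5, a receptor for R-spondins, rose from 17.0, 17.4 and 19.5 to 83.5, 128 and 86.7 CPM (2.47, SE 0.22, adjusted p 4.73e-05; 2.29, adjusted p 1.35e-07 with 11). The receptor FZD7 rose from 14.8, 15.4 and 16.5 to 49.98, 60.8 and 56.7 CPM (1.84, SE 0.16, adjusted p 3.86e-05). In the Notch pathway 3 of 18 passed higher and 4 lower (1 and 2 without T3 replicate 1, 2 lower without each vehicle library, 5 and 4 with 11). The ligand gene JAG1 fell from 111, 106 and 105 to 34.1, 31.1 and 28.1 CPM (-1.78, SE 0.15, adjusted p 3.11e-05; -1.73, adjusted p 3.77e-07 with 11). In the TGF-beta and BMP pathway 7 of 23 passed higher and 2 lower (1 lower in 10 of the 12 fits without 1 library, 10 higher and 5 lower of 25 with 11). The ligand gene TGFB3 rose from 1.83, 1.90 and 1.59 to 10.96, 8.63 and 11.1 CPM (2.53, SE 0.36, adjusted p 0.000911). The coreceptor gene TGFBR3 rose from 1.83, 0.775 and 1.76 to 5.18, 7.56 and 5.75 CPM (2.06, SE 0.31, adjusted p 0.00135).

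Kinase pathway genes were led by SGK1, a kinase of the PI3K branch, which rose from 12.1, 12.8 and 12.3 CPM to 240.5, 264 and 259.8 CPM (4.36, SE 0.17, adjusted p 4.04e-07; 4.38, adjusted p 2.41e-10 with 11) with T3 replicate 2 beside the other T3 libraries. PIK3CD, the delta catalytic subunit, went from 1.42, 1.46 and 2.18 to 17.5, 2.88 and 20.4 CPM (3.01, SE 0.56, adjusted p 0.00454; 3.50, adjusted p 4.51e-08 with 11). The PIK3CD call was lost with the 6 TRB libraries alone (adjusted p 0.0909). With 12 libraries 4 of 23 PI3K and AKT genes passed, all higher (2 to 10 without 1 library, the fewest without vehicle replicate 1 or 3), and 10 higher and 1 lower with 11. Shares over all tested genes were 8.54% higher and 6.2% lower with 12 libraries, and 18.1% and 15.2% with 11. The EGF receptor ligand HBEGF rose from 2.03, 1.90 and 2.01 to 17.9, 31.8 and 22.0 CPM (3.58, SE 0.33, adjusted p 6.3e-05). Of 23 genes of ERK pathway feedback and output 4 passed lower and 2 higher (1 to 9 lower, with 2, 1 and 2 without vehicle replicates 1 to 3), and 9 and 4 with 11. SPRY2, a Sprouty inhibitor, went from 17.0, 19.3 and 19.9 to 8.48, 6.84 and 10.4 CPM (-1.12, SE 0.20, adjusted p 0.00328). The SPRY2 call was lost with the 6 TRB libraries alone (adjusted p 0.0861).

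Among other transcription factors, BHLHE41, a repressor of the circadian clock, rose from 24.7, 29.1 and 28.8 CPM to 315, 698 and 334 CPM (4.03, SE 0.31, adjusted p 2.1e-05; 3.60, adjusted p 2.08e-09 with 11). The Krüppel-like factors KLF11 and KLF4 both fell. KLF11 went from 25.7, 28.0 and 27.9 to 7.35, 9.71 and 7.49 CPM (-1.74, SE 0.18, adjusted p 0.000104). KLF4 went from 60.2, 63.7 and 54.7 to 21.2, 24.5 and 25.7 CPM (-1.32, SE 0.18, adjusted p 0.000704). VDR, the vitamin D receptor, fell from 24.9, 28.3 and 27.8 to 12.3, 12.1 and 12.1 CPM (-1.15, SE 0.15, adjusted p 0.000557; -1.10, adjusted p 3.18e-05 with 11). Of 23 other nuclear receptors 3 passed, all lower (1 to 7 without 1 library, the fewest without vehicle replicate 1 or 3), and 3 higher and 7 lower with 11. Shares over all tested genes were 8.54% higher and 6.2% lower with 12 libraries, and 18.1% and 15.2% with 11. ALDH1A3, which makes retinoic acid, rose from 1.32, 1.98 and 2.27 CPM to 101, 123 and 106 CPM (5.87, SE 0.30, adjusted p 1.38e-06; 5.82, adjusted p 1.06e-09 with 11). Of 7 tested genes of catecholamine synthesis and reception 4 passed lower and none higher with 12 libraries. In each fit without 1 library 4 passed lower and 0 to 2 higher, the most without T3 replicate 2. Besides DDC they include ADRA2A, an adrenergic receptor, which fell from 7.32, 10.3 and 7.72 to 1.88, 0.360 and 1.499 CPM (-2.65, SE 0.38, adjusted p 0.000984; -2.24, adjusted p 2.35e-05 with 11).

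Whether these responses differed from those of EV cells was tested by the interaction of vector and treatment. EV libraries also differed from their group mates by GC content, which leaving out T3 replicate 2 of TRB cells does not remove. The Spearman correlation was -0.821 in EV T3 replicate 2 and 0.792 in EV T3 replicate 3, and between -0.656 and 0.452 in the other EV libraries. EV T3 replicate 3 had 3819306 counts in genes, and 92.0% of everything counted was not unique. With 12 libraries 374 genes passed (2.59% of 14431), 255 of them with the higher value in TRB cells (1.77%) and 119 with the lower (0.825%), and 2259 (15.2% of 14825) with 11. In EV cells themselves 33 genes passed, 0.229% of those tested, and 1087 (7.33%) with 11 libraries. For KLF9 the difference was not called (0.64, SE 0.46, adjusted p 0.406). KLF9 also rose in EV cells, by 3.41 (SE 0.36, adjusted p 0.00272). RUNX2 differed by 2.62 (SE 0.30, adjusted p 0.00206) and CEMIP by -4.34 (SE 0.27, adjusted p 5.16e-05). GLUL differed by 3.50 (SE 0.20, adjusted p 4.6e-05) and MMP7 by 3.64 (SE 0.29, adjusted p 0.000295). SGK1 differed by 2.92 (SE 0.21, adjusted p 0.00017), TNFSF10 by 4.58 (SE 0.58, adjusted p 0.00303) and SCD by 1.96 (SE 0.18, adjusted p 0.000487). GLUL stood at 201, 201 and 200.3 CPM in EV cells with vehicle and 324, 326 and 336 CPM in EV cells with T3. MMP7 stood at 67.3, 75.5 and 77.9 CPM in EV cells with vehicle and 358, 360.3 and 308 CPM in EV cells with T3. SCD stood at 259, 239 and 253 CPM in EV cells with vehicle and 370.1, 359 and 381 CPM in EV cells with T3. Each of these 7 differences also passed in every fit that left out 1 of the 12 libraries. For IL32 the test was not informative (6.08, SE 100.98, adjusted p 0.973): EV vehicle libraries had no count and EV libraries with T3 at most 0.211 CPM.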

How the data were processed

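RNA sequencing of 12 libraries, 3 in each of 4 groups, was analysed from raw counts per gene that the authors deposited. Per the submitters' processing notes the tools were CASAVA 1.7, STAR 2.7, HTSeq 0.10 and DESeq2 with genome build hg38. The annotation, strand setting and counting options are not given in the sources used here. The 5 closing lines of each deposited count file, which name no gene, were left out of library sizes.

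Groups came from the sample titles. Genes were kept by filterByExpr (minimum count 10, total 15) and fitted in edgeR 4.0.16 (R 4.3.3, limma 3.58.1) with TMM scaling, 1 coefficient per group and the two-sided quasi-likelihood F test, with Benjamini-Hochberg adjustment over all tested genes (14431 with 12 libraries, 14825 with 11). The fit without T3 replicate 2 stands beside it. Fold bounds used a floor of 3 counts per library, which covers counting error only. Scripts were tested on simulated data with 200 changed genes. False calls made up 9.8% of calls for T3 against vehicle in TRB cells and 14.8% for the difference between vectors. Of 2-fold changes 7% and 0% were found, and of 4-fold changes 76% and 23%. The simulation changed 200 of 14431 genes, where 2128 passed in the data. It used the same spread per gene in all libraries and held no library that followed GC content. These rates therefore need not hold for the data. Gene GC content came from GENCODE 29 by symbol and had a value for 86.5% of tested genes. Promoter windows are from RefSeq.

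The members and lists were chosen with earlier results of these data known. Genes named are a subset of those the rule gives: the receptor and marker genes, the largest changes on the log2 scale and in CPM, the largest members of each list and the largest interactions. A further 8 genes, IFIT3, IRF1, B2M, TAP2, PGK1, ATF4, LGALS4 and HNF4A, were chosen after their values were seen. Some genes are not reported here. Alternatives comprised DESeq2 1.42.0, limma-voom, other scaling and filters, GC offsets, a required fold of 1.5, a replicate block, the TRB libraries alone and leaving out each library. The fit of 5 TRB libraries was added after seeing the data.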

Additional observations from a re-analysis of the deposited data

Results flagged for a closer look

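For 61 of the genes named above, the response to T3 differed between TRB and EV cells, as the interaction of vector and treatment had an adjusted p below 0.05 in edgeR's fit of 12 libraries. Over all tested genes 374 of 14431 (2.59%) passed this test. Named genes were chosen partly for large interactions and large T3 changes, so their count is no separate result. Values in parentheses are the log2 change in TRB cells minus that in EV cells. The responses were more positive in TRB cells, and the difference passed without each of the 12 libraries in turn, for RUNX2 (2.62), CPM (8.37), ABCG2 (3.77), TP53INP2 (4.28), MYT1 (5.63), TFAP2C (4.21), TNC (4.25), GLUL (3.50), MMP7 (3.64), ERAP1 (2.23), ERAP2 (2.64), TNFSF10 (4.58), FN1 (2.40), CTGF (2.74), TIMP2 (2.72), SCD (1.96), LGR5 (1.88), FZD7 (1.697), HBEGF (2.92), SGK1 (2.92), BHLHE41 (2.97), ALDH1A3 (3.02) and NRP1 (2.62). They were more negative, and passed likewise, for CEMIP (-4.34), DDC (-3.42), FLVCR2 (-2.65), GALNT12 (-2.28), ENC1 (-1.25), TBL1X (-1.62) and JAG1 (-1.57). These make up 30 of the 61 genes. Values of CPM rest on TRB vehicle libraries at or under 3 counts and are no bounds.

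In the other 31 genes the difference missed the threshold in at least 1 fit that left out a library. More positive in TRB cells were THRB (1.72), ABCB1 (8.18), ABCC2 (3.36), APOL1 (5.53), C2orf54 (3.59), HEG1 (1.68), GPRC5A (1.57), HIF1A (2.50), B2M (1.81), TAP2 (1.61), ZEB1 (3.31), LAMC1 (0.90), LAMA3 (1.05), INSIG1 (1.81) and ATP2A2 (1.04). More negative were RUNX1 (-1.39), PHGR1 (-3.84), GLI1 (-2.91), AHNAK2 (-2.40), KIF21B (-2.42), ABHD2 (-0.90), TFF3 (-3.93), IL1A (-3.34), COL17A1 (-1.33), ASNS (-1.51), MYC (-1.35), KLF11 (-1.05), KLF4 (-1.20), VDR (-1.001), ADRA2A (-2.81) and HNF4A (-1.47). The highest adjusted p over these fits was 0.184, for ABCB1. Values of ABCB1, TFF3 and IL1A rest on a TRB group at or under 3 counts per library. What sets these differences was not tested.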

How the results depend on the processing

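Counts of genes that passed for T3 against vehicle in TRB cells ran from 1256 to 4938 over the 12 fits that left out 1 library, against 2128 in the fit of all. They were 7797 with limma-voom, 5301 with GC offsets, 7069 with GC offsets and without T3 replicate 2, 968 with a fold of 1.5 required, 634 with the 6 TRB libraries alone and 7352 with 5 of these, an alternative added after seeing the data. DESeq2 gave 3101, size factors by RLE 2138, no count filter 1816 and at least 10 counts in every library 1670. The share of higher calls was 57.9%, but 47.7% with GC offsets, 43.5% with GC offsets and without T3 replicate 2, 45.0% with limma-voom and 71.5% with the 6 TRB libraries alone. For the difference between vectors, 374 in all, the counts ran from 136 to 2259 without 1 library and were 1022 with DESeq2, 6343 with limma-voom, 238 with no count filter, 2376 with GC offsets, 4315 with these and without T3 replicate 2, and 158 with a fold of 1.5 required. The cause was not tested. Of 108 genes named and tested, 84 kept direction and call in every one of the 23 other settings that tested them, 9 lost or reversed the call without some library and 20 lost it with the 6 TRB libraries alone. HR turned to -0.13 without T3 replicate 1, -0.29 without T3 replicate 3 and -0.17 with the replicate block, and was 0.68 without T3 replicate 2. The labels do not say whether replicate numbers pair the samples. Correlations of deviations between same-numbered T3 and vehicle libraries were 0.27, 0.17 and -0.15. T3 replicates 1 and 2 correlated best with vehicle libraries of their own number, and T3 replicate 3 with vehicle replicate 1. These values cannot settle pairing, since differences among the T3 libraries followed GC content (Spearman 0.856, -0.885 and 0.872 for replicates 1 to 3). The replicate block gave 2278 calls and 395 for the difference between vectors. T3 replicate 2 had the fewest counts of the TRB libraries, which limits genes of low expression most.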
